A study of Mus musculus with 12 samples.

Results

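The genes described here encode receptors for extracellular nucleotides and adenosine, together with the enzyme that clears ATP from the cell surface. They were chosen by symbol from the family, with *P2ry12* and *P2ry13* left out, and number 10 of the 48623 genes in the table. The ATP-gated channels were *P2rx4* and *P2rx7*. The G protein-coupled nucleotide receptors were *P2ry2*, *P2ry6* and *P2ry14*. The adenosine receptors were *Adora1*, *Adora2a*, *Adora2b* and *Adora3*. The enzyme was *Entpd1* (CD39). Each symbol matched 1 row of the table, and 7 of the 10 genes had a mean above 1.5 on the log2(TPM + 1) scale, the limit for testing.

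The cells were primary microglia, the resident macrophages of the brain, grown from the cortex and hippocampus of C57BL/6J pups 1 to 3 days old. They came from wild type (WT) mice or from mice carrying 2 *Trem2* R47H knock-in copies (homozygous, KI), and were left untreated or given IL-4, an anti-inflammatory cytokine, at 20 ng/ml for 48 h. WT cultures 13, 33 and 43 and KI cultures 15, 22 and 32 each gave an untreated and an IL-4 library, so that 12 libraries fell into 4 groups of 3. Microglia were isolated by mild trypsinization of a mixed glial layer, and the study describes KI microglia set against WT littermates. Its methods give both pooled WT litters and pups grown separately, and the labels do not say which of these a culture was.

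ATP leaks or is released from active and damaged cells, opens P2X channels and activates some P2Y receptors on microglia, and is then stripped of its phosphates by CD39 and CD73 to leave adenosine. Adenosine acts through its own receptors, of which A1 and A3 lower cyclic AMP and A2A and A2B raise it. In microglia this system is known for guiding processes toward injury, for phagocytosis and for the release of interleukin-1 beta.

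In the GRCm38 annotation the ATP-gated channels are neighbors, *P2rx7* at chr5:122643911-122691432 and *P2rx4* at chr5:122707544-122729738, both on the plus strand, with 16111 bases and no protein-coding gene between them. *P2ry6* (chr7:100937630-100974649) and *P2ry2* (chr7:100996568-101012866) lie 21918 bases apart on the minus strand of chromosome 7, again with no protein-coding gene between. *Entpd1* (chr19:40612366-40741602, plus strand), *Adora2a* (chr10:75316877-75334784, plus strand) and *Adora2b* (chr11:62248984-62266453, plus strand) stand apart from the others. *P2ry14* (chr3:59113855-59153618, minus strand) lies inside *Med12l* on the opposite strand, and their exons share no bases. *Adora1* (chr1:134199223-134235431, minus strand) shares 1162 exon bases, 20.1% of its own, with *Mybph* on the other strand, which had a mean of 0.0151 TPM. *Adora3* (chr3:105870858-105908926, plus strand) shares 779 exon bases, 20.9% of its own, with *Tmigd3* on the same strand. *Tmigd3* had a mean of 1.40 TPM, and reads from the shared exons could be assigned to either gene, which makes the low values of *Adora3* uncertain.

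RefSeq promoter windows, on GRCm38.p6 and reaching from 250 bases before to 50 bases after a start site, were found for 8 of the 10 genes, with 15 windows in all. *P2ry6* and *Adora2a* had none in the table. Windows were searched on both strands for 4 motifs, namely the STAT6 spacing TTCNNNNGAA, the STAT spacing TTCNNNGAA, the PU.1 letters GAGGAAGT and the GC box GGGCGG. STAT6 is the factor that IL-4 signaling activates and PU.1 the master regulator of microglia. Of all 32851 windows in the table, 6.95% held the STAT6 letters and 8.30% the STAT letters, against 0 of the 15 windows here. The PU.1 letters were in 3.20% of all windows and in 2 of the 15, those of *Adora3* and of the second *P2rx7* start. GC boxes were in 35.7% of all windows and in 6 of the 15, and no match overlapped one of another motif. Below are 280 bases, of which 30 follow the start, for *P2rx4*, which had the highest mean level, and for the genes with a PU.1 match. They read 5' to 3' on the gene's strand, with the matches in capitals, a GC box for *P2rx4* (chr5:122707294-122707573) and PU.1 letters on the minus strand for *P2rx7* (second start, chr5:122650133-122650412) and *Adora3* (chr3:105904171-105904450), all 3 on the plus strand.
P2rx4: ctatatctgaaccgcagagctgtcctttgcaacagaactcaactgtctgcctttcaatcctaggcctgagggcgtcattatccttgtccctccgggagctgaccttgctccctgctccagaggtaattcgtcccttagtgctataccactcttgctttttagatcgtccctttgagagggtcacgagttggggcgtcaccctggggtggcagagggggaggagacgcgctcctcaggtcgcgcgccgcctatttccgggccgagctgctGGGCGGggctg
P2rx7: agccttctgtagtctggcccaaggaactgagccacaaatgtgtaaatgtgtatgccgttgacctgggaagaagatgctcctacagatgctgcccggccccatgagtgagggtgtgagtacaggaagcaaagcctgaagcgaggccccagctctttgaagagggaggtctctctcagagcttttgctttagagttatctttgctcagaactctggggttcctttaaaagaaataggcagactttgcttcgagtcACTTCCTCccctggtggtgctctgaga
Adora3: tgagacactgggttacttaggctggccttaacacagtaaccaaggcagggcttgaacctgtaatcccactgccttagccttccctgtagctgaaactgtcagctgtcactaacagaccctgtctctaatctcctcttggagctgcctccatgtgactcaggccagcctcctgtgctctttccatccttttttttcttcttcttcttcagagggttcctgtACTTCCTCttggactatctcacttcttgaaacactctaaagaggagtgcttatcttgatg
A match is a description of letters only, and none of these windows was measured for binding. No *P2rx7* transcript of the GRCm38 annotation held the bases that follow its second start.

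Values are TPM, transcript abundance per gene scaled for length and to the same library total, and can be compared between genes. They keep no read counts, so the depth behind a value is unknown and precision rests on the spread between cultures. *Trem2* was at 1190 to 1886 TPM in WT and at 325 to 770 TPM in KI libraries (log2 difference -1.43, SE 0.19, n = 6 libraries per genotype from 3 cultures, adjusted p = 0.00763, limma's F-test). That fit had no culture block, and with culture as a random block the adjusted p was 0.0116 by the same test. Leaving out KI culture 15 gave -1.16 (0.00528), while the adjusted p was 0.106 without WT culture 33 and 0.0766 without WT culture 43. All 18 microglial markers were above 0 in all libraries, and their sum was 25748 to 27327 TPM in untreated WT, 11548 to 21681 in untreated KI, 30501 to 39186 in IL-4-treated WT and 20251 to 26326 in IL-4-treated KI libraries. Markers of other cells were also present. The 10 astrocyte markers summed to 4803 TPM in untreated and 3674 TPM in IL-4-treated KI culture 15, against 167 to 693 TPM in the other 10 libraries. The 11 mural and fibroblast markers summed to 741 to 1446 TPM in KI and 152 to 657 TPM in WT libraries, although *Myh11* and *Rgs5* were at or near 0. Most of the sum was *Acta2* and *Tagln*. *Col1a1*, *Col1a2* and *Col3a1* had higher means in KI when untreated. With IL-4 their means were higher in WT (33.1, 30.0 and 23.3 TPM) than in KI (14.0, 10.3 and 9.53 TPM), with the highest values in WT culture 43. The 8 oligodendrocyte lineage markers summed to 93.1 to 455 TPM in KI and 33.1 to 93.1 TPM in WT libraries, and neuronal markers to 28.0 TPM at most. Endothelial markers summed to 19.4 to 142 TPM, most of it *Flt1*, with *Cldn5* at 0 throughout. Culture 15 stood apart by the astrocyte and oligodendrocyte lineage markers, and genotype differences of the members tested are given with and without it. The mural and fibroblast sums, led by *Acta2* and *Tagln*, were higher in all 3 KI cultures than in WT. In RNA from whole cultures, fewer cells of a type and less RNA per cell cannot be told apart.

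The family was dominated by a channel and a UDP receptor. *P2rx4* encodes P2X4, an ATP-gated cation channel that microglia use in pain signaling, and its mean level over the 12 libraries exceeded that of 94.7% of the genes tested. *P2ry6* encodes P2Y6, the UDP receptor linked to microglial phagocytosis, and exceeded 93.7% of the genes tested. Together they made up 60.2% to 88.9% of the summed TPM of the 10 genes in each library. *Entpd1* came next, above 67.0% of the genes tested, and *P2rx7* above 55.6%. *P2ry2*, *Adora1* and *Adora3* lay among the lowly expressed genes, above 11.8%, 21.6% and 8.59% of them, and *P2ry14*, *Adora2a* and *Adora2b* fell below the limit.

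Neighbors in this order were not always apart. In untreated WT cultures *P2rx4* was at 214 ± 16.6 TPM (SD, n = 3) and *P2ry6* at 156 ± 18.1 TPM, with no overlap between their libraries. With IL-4 the order in WT was the other way round, with *P2ry6* at 307 ± 26.2 TPM (SD, n = 3) above *P2rx4* at 244 ± 22.2 TPM, again with no overlap. In KI cultures *P2rx4* had the higher mean in both conditions, but its libraries overlapped those of *P2ry6*. *Entpd1* and *P2rx7* overlapped in untreated WT (29.3 ± 3.37 and 25.5 ± 8.36 TPM, SD, n = 3) and in IL-4-treated KI cultures and were apart in the other 2 groups. The 6 remaining genes had group means of 13.2 TPM or less, and each overlapped its neighbor among them in every group.

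**Figure D1:**
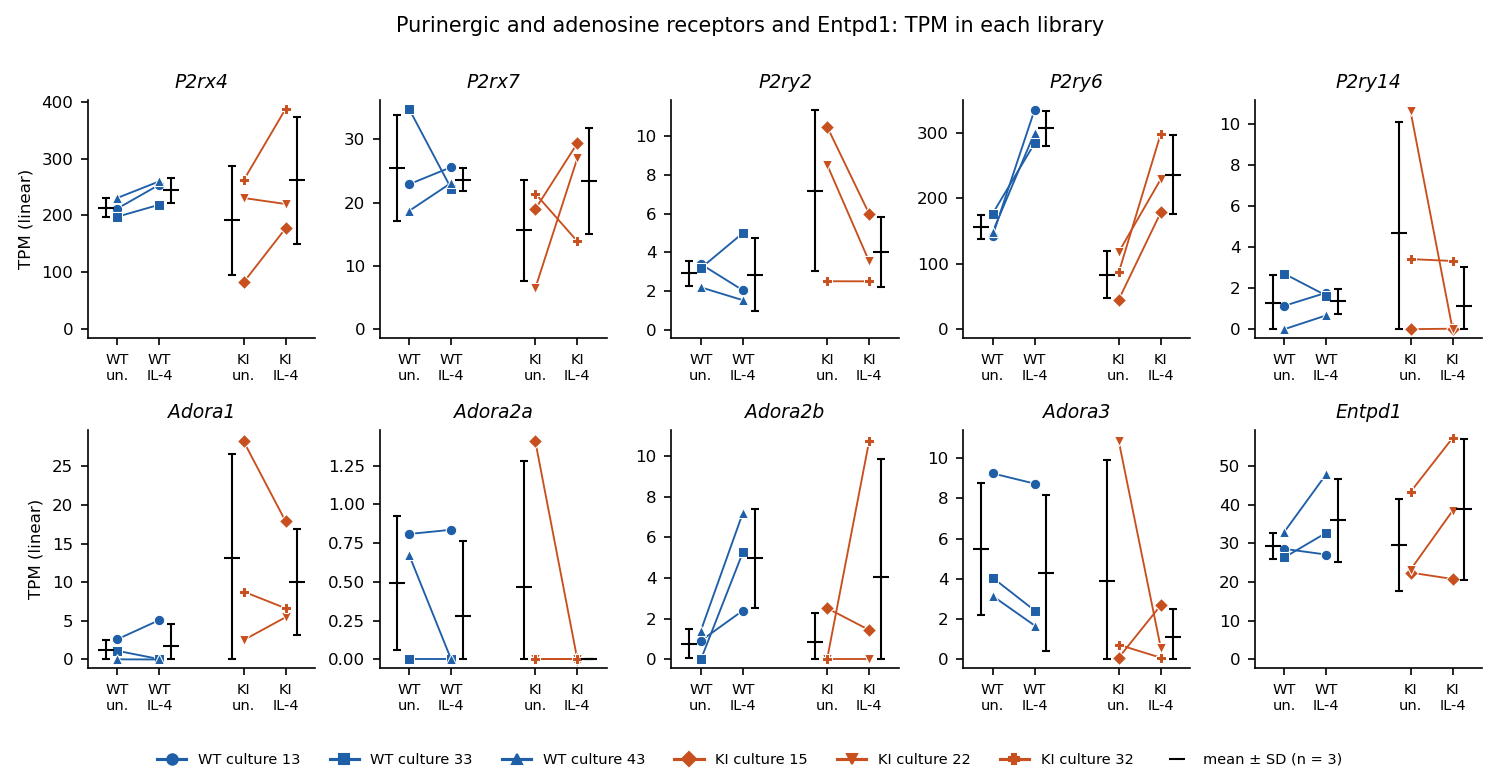
TPM (linear axis) of the 10 genes in each library, with a line joining the untreated and IL-4 libraries of a culture, WT in blue and KI in orange, and bars for the mean ± SD of 3 libraries (lower ends stop at 0). All 6 *P2ry6* lines slope upward, while *P2rx4* and *Entpd1* varied more between KI than between WT cultures.

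*P2ry6* rose with IL-4. Whether its response differed from those of the other members was not tested. Untreated WT cultures 13, 33 and 43 had 143, 176 and 148 TPM, and with IL-4 they had 335, 284 and 300 TPM. Untreated KI cultures 15, 22 and 32 had 45.2, 118 and 86.7 TPM, and with IL-4 they had 179, 229 and 299 TPM. Every IL-4 library lay above every untreated library of its genotype, which held for 10.8% of the genes tested in WT and for 5.47% in KI. The fold of IL-4 over untreated TPM was 2.35, 1.61 and 2.02 in WT cultures 13, 33 and 43 and 3.95, 1.95 and 3.45 in KI cultures 15, 22 and 32. All 6 cultures thus moved upward, as they did for 5.73% of the genes tested. On the log2(TPM + 1) scale the difference, averaged over both genotypes, was 1.27 (SE 0.20, n = 6 cultures, 2.41-fold), with an adjusted p of 0.0132 by limma's F-test over 11204 genes.

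Of the 7 family members tested, *P2ry6* alone was past the threshold of 0.05 for IL-4. Over all genes tested, 100 or 0.893% passed, and 0.75% passed as higher. With culture as a fixed block 240 genes passed. The median difference of the 7 members was 0.29, against 0.04 for all genes tested. The mean of the microglial markers was 0.10 higher with IL-4 on the log2 scale, and *P2ry6* relative to those markers was 1.17 higher with an adjusted p of 0.0463. The call was lost without WT cultures 13, 33 or 43 or KI culture 32, with log2 differences of 1.21, 1.34, 1.26 and 1.22 and adjusted p-values of 0.0777, 0.0700, 0.104 and 0.0938 by limma. Border macrophage markers summed to 37.9 to 191 TPM untreated and 81.1 to 395 TPM with IL-4, with *Lyve1* at 0 throughout and *Cd163* at 0.0546 TPM at most. Nearly all of the sum was thus *Pf4* and *Mrc1*. *Mrc1* was higher with IL-4 in every culture. *Pf4* was higher in every culture but WT culture 13, where it went from 148 to 96.2 TPM. Endothelial markers summed to 19.4 to 29.1 TPM untreated and 61.0 to 142 TPM with IL-4, with *Cldn5* at 0. Most of this sum was *Flt1*, at 15.3 to 25.0 TPM untreated and 54.7 to 132 TPM with IL-4. *Pecam1* reached 9.19 TPM, *Kdr* 1.23 TPM and *Cdh5* 0.334 TPM at most. The part of either list in the result was not tested. The call held without KI culture 15 (1.17, adjusted p = 0.00133) and was also lost with no expression filter (adjusted p = 0.200) and with no variance trend (0.110).

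The response was not shown to differ between genotypes. *P2ry6* was 0.97 higher with IL-4 in WT (SE 0.28, adjusted p = 0.263 by limma) and 1.56 higher in KI cultures (SE 0.28, adjusted p = 0.0286). The difference of these responses was 0.59 (SE 0.40), with an unadjusted p of 0.165 and an adjusted p of 1.00 by limma. None of the 7 members passed the interaction test by limma, and 0 of them had an unadjusted p under 0.05. Of all 11204 genes, 0 (0%) passed and 357 had an unadjusted p under 0.05.

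No other member passed the IL-4 test, and their differences had both signs. *P2rx4* had 212, 198 and 231 TPM in untreated WT cultures 13, 33 and 43 and 254, 219 and 260 TPM with IL-4. In KI cultures 15, 22 and 32 it was at 82.2, 231 and 262 TPM untreated and at 177, 220 and 388 TPM with IL-4. The WT and KI ranges overlapped in both conditions, and 5 of 6 cultures were higher with IL-4, by 0.36 on average (log2, SE 0.26, adjusted p = 0.963 by limma). *P2rx7* encodes P2X7, the channel that high ATP opens to drive interleukin-1 beta release. WT cultures had 22.9, 34.8 and 18.7 TPM before and 25.6, 22.2 and 23.1 TPM after IL-4. KI cultures had 19.0, 6.48 and 21.4 TPM untreated and 29.4, 27.0 and 13.9 TPM with IL-4. *P2rx7* was higher with IL-4 in 4 cultures and lower in 2, so that its difference of 0.29 (log2, SE 0.30) was about as large as its error.

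*Entpd1*, whose product CD39 hydrolyzes ATP and ADP, had 28.6, 26.4 and 33 TPM in untreated WT cultures and 27.1, 32.8 and 48.0 TPM with IL-4. KI cultures had 22.4, 23.2 and 43.3 TPM untreated and 20.8, 38.4 and 57.3 TPM with IL-4. Of the 6 cultures 4 were higher with IL-4, the average difference was 0.29 (log2, SE 0.26, adjusted p = 0.994 by limma), and all 4 groups overlapped. *P2ry2*, a receptor for ATP and UTP, was lower with IL-4 in 5 of 6 cultures (log2 difference -0.36, SE 0.40, adjusted p = 0.998 by limma), and so was *Adora3* (-0.52, SE 0.61, adjusted p = 1.00).

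*Adora2b*, the low-affinity adenosine receptor, lay below the limit for testing, although its WT values separated by treatment. Untreated WT cultures 13, 33 and 43 were at 0.923, 0 and 1.42 TPM and reached 2.41, 5.28 and 7.22 TPM with IL-4, without overlap, which held for 10.8% of the genes tested. KI cultures 15, 22 and 32 were at 2.53, 0 and 0 TPM untreated and at 1.45, 0 and 10.7 TPM with IL-4, and overlapped. In the fit with no expression filter its difference of 1.38 (log2, SE 0.66) had an adjusted p of 0.867 by limma. *Adora2a* was listed at 0 in 8 of 12 libraries and reached 1.41 TPM at most. *P2ry14*, the receptor for UDP-sugars, ranged from 0 to 10.6 TPM, with its highest value in untreated KI culture 22, and had 3 cultures higher and 3 lower with IL-4.

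**Figure D2:**
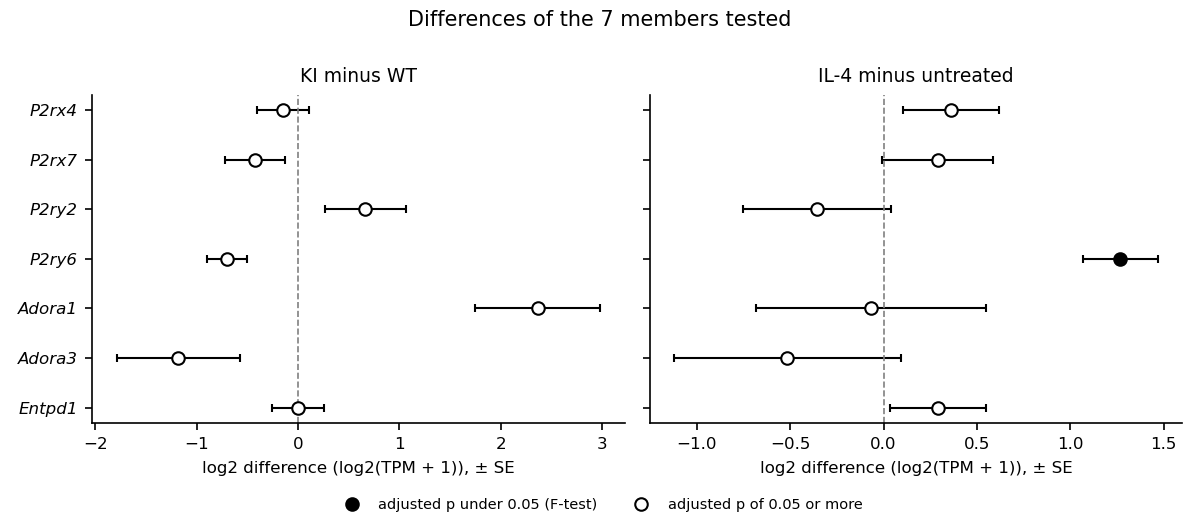
Differences on the log2(TPM + 1) scale, with SE, of the 7 members tested, KI minus WT on the left and IL-4 minus untreated on the right, each averaged over the other factor. Filled points have an adjusted p under 0.05 by limma's F-test, which applied to *P2ry6* with IL-4 alone, and *Adora1* had the largest difference between genotypes at 2.36.

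No member passed the threshold for genotype. By limma's F-test 0 of 7 members passed, against 185 genes or 1.65% of all genes tested (77 with culture as a random block and 49 without KI culture 15), and 2 of the 7 (*P2ry6* and *Adora1*) had an unadjusted p under 0.05, as did 1799 of 11204 genes. Members' adjusted p-values ran from 0.130 to 0.994, and their median difference was -0.15, against 0.13 for all genes tested. Relative to that median of 0.13, the differences of *P2ry6* and *Adora1* were -0.83 and 2.24. After quantile normalization the median of all genes was -0.08.

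*P2ry6* had lower values in untreated KI cultures, without passing the test. All 3 untreated KI libraries (45.2, 118 and 86.7 TPM) lay below the 3 untreated WT libraries (143 to 176 TPM), as was true of 4.55% of the genes tested. With IL-4 the KI range of 179 to 299 TPM overlapped the WT range of 284 to 335 TPM. The difference over both conditions was -0.70 (log2, SE 0.20) with an adjusted p of 0.134 by limma's F-test, and -0.99 (SE 0.28, adjusted p = 0.106) in untreated cultures alone. The mean of the 18 microglial markers differed by -0.64 between KI and WT on the same scale, and *P2ry6* relative to those markers differed by -0.06 (adjusted p = 0.786 by limma). The markers include *Trem2*, with a log2 difference of -1.43 between KI and WT, and *P2ry12* (-0.65). They also include *Csf1r* and *C1qa*, which the paper reports as lower with reduced *Trem2*. This reference thus itself differs by genotype and is no neutral measure of microglial content. Without culture 15 the difference was -0.42 (adjusted p = 0.249), and with the mean level of the astrocyte markers as a covariate, called the astrocyte marker score, it was -0.29 (adjusted p = 0.337).

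*Adora1* encodes A1, an adenosine receptor that inhibits adenylyl cyclase, and had the widest difference between genotypes. Untreated WT cultures 13, 33 and 43 were at 2.62, 1.12 and 0.0209 TPM and untreated KI cultures 15, 22 and 32 at 28.2, 2.51 and 8.79 TPM. With IL-4 the WT cultures were at 5.11, 0.0445 and 0 TPM and the KI cultures at 17.9, 5.47 and 6.63 TPM. The untreated ranges overlapped by culture 13 of WT and culture 22 of KI, while every IL-4-treated KI library lay above every IL-4-treated WT library, as for 12.7% of the genes tested. On the log2 scale KI was 2.36 higher (SE 0.62), with an adjusted p of 0.130 by limma's F-test.

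A test of the average difference alone put *Adora1* past the threshold (adjusted p = 0.0432 by limma), as it did 5.13% of the genes tested, and so did values relative to the microglial markers (3.01, adjusted p = 0.00736), where 33.7% of genes passed. Both tests, like the F-test, take the 2 libraries of a culture as separate samples, and the microglial markers include *Trem2*. With culture as a random block the adjusted p was 0.0653 for the average difference and 0.173 by the F-test, and it was 0.204 in untreated cultures alone and 0.385 after IL-4 alone. The average difference also missed the threshold without WT culture 33 or 43 or KI culture 15 or 32 (adjusted p = 0.179, 0.237, 0.195 and 0.0763 by limma). The astrocyte marker sum was largest in culture 15, the culture with the most *Adora1*. Among WT libraries the 2 of culture 13 had both the highest astrocyte sums (693 and 619 TPM) and the highest *Adora1*. KI culture 32 had sums of 606 TPM untreated and 645 TPM with IL-4, and KI culture 22 had sums of 221 and 613 TPM. WT cultures 33 and 43 had sums of 167 to 205 TPM. At sums of 606 to 693 TPM, *Adora1* was at 2.62 and 5.11 TPM in the libraries of WT culture 13, at 8.79 and 6.63 TPM in those of KI culture 32 and at 5.47 TPM in IL-4-treated KI culture 22. The part of the astrocyte markers in the difference between genotypes was not tested beyond the values that follow. Without culture 15 the difference was 1.74 (adjusted p = 0.385 by limma), and with the astrocyte marker score as a covariate it was 1.05 (adjusted p = 0.603). The oligodendrocyte lineage markers were also highest in culture 15, at 455 TPM untreated and 315 TPM with IL-4 against 33.1 to 162 TPM in the other libraries, most of it *Olig1* (361 and 227 TPM in culture 15), and their part was not tested. No value here assigns the *Adora1* transcripts to a cell type.

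**Figure D3:**
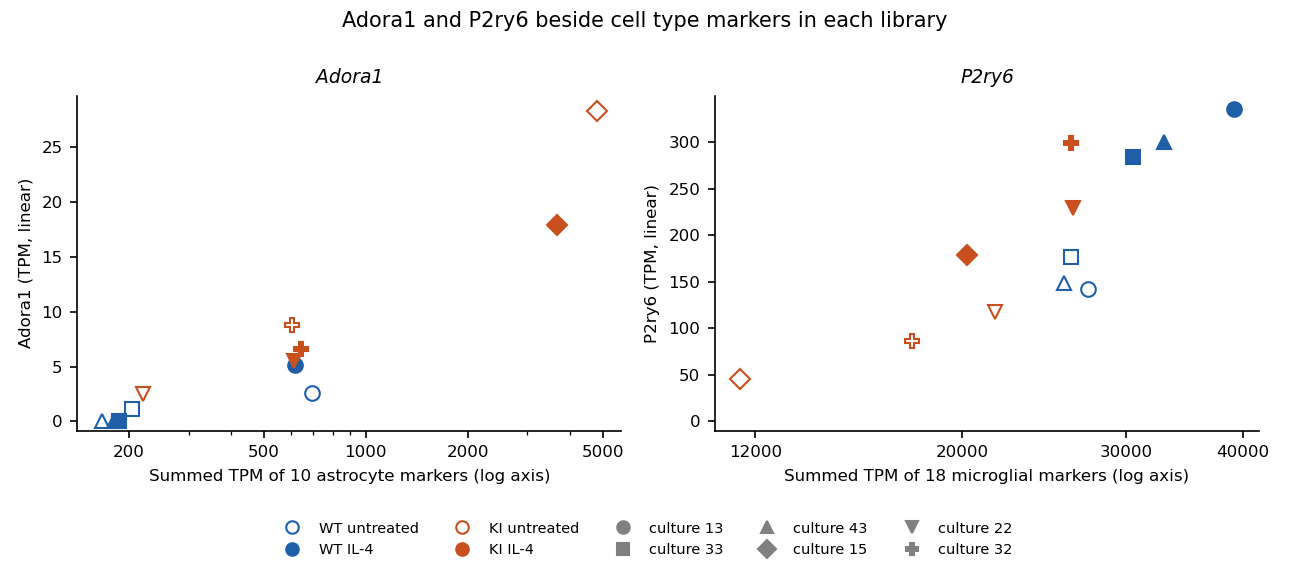
Left, *Adora1* (TPM) in each library against the summed TPM of 10 astrocyte markers, and right, *P2ry6* (TPM) against the summed TPM of 18 microglial markers, both on log x axes, with open symbols for untreated and filled symbols for IL-4-treated libraries. The 2 libraries of KI culture 15 stand at the right of the left panel with 28.2 and 17.9 TPM of *Adora1*, and the untreated library of the same culture has the lowest *P2ry6* value, 45.2 TPM.

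Of the other genes of the family, *Adora3* had lower and *P2ry2* higher means in KI cultures, neither past the threshold. *Adora3* encodes A3, a further adenosine receptor that lowers cyclic AMP. WT cultures had 9.23, 4.06 and 3.15 TPM before and 8.72, 2.43 and 1.68 TPM after IL-4. KI cultures 15, 22 and 32 had 0.0923, 10.8 and 0.731 TPM untreated and 2.70, 0.564 and 0.0870 TPM with IL-4. KI culture 22 held the highest of all values when untreated, and the groups overlapped in both conditions. The difference of -1.18 (log2, SE 0.61) had an adjusted p of 0.543 by limma's F-test, and without culture 15 it was -1.09 (0.549). For *P2ry2*, untreated WT libraries had 3.40, 3.19 and 2.19 TPM and untreated KI libraries 10.5, 8.54 and 2.51 TPM. After IL-4 they had 2.04, 5.00 and 1.53 TPM in WT and 6.00, 3.54 and 2.51 TPM in KI. Its groups overlapped, with a difference of 0.66 (log2, SE 0.40, adjusted p = 0.607 by limma), or 0.36 (0.874) without culture 15.

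The channels and the enzyme gave smaller differences between genotypes. *P2rx7* differed by -0.43 (log2, SE 0.30, adjusted p = 0.576 by limma) and by -0.63 (0.529) without culture 15, and the lowest of its 12 values, 6.48 TPM, was in untreated KI culture 22. *P2rx4* differed by -0.15 (SE 0.26, adjusted p = 0.889), and by 0.23 (0.706) without culture 15, whose untreated library held the lowest value at 82.2 TPM. *Entpd1* differed by -0.004 (SE 0.26, adjusted p = 0.994) and by 0.27 (0.778) without culture 15, with KI libraries spread over 20.8 to 57.3 TPM and WT libraries over 26.4 to 48.0 TPM. *P2ry14*, *Adora2a* and *Adora2b* were tested in the fit with no expression filter and had adjusted p-values of 0.878, 0.963 and 0.917 by limma.

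The relative weight of the 2 leading receptors was compared within each library after their values were seen, as a description with no test. *P2ry6* over *P2rx4* was 0.672, 0.892 and 0.642 in untreated WT cultures 13, 33 and 43 and 0.550, 0.511 and 0.331 in untreated KI cultures 15, 22 and 32. With IL-4 the ratios were 1.32, 1.30 and 1.15 in WT and 1.01, 1.04 and 0.771 in KI. The ratio was thus higher with IL-4 in all 6 cultures, and the KI ratios lay below the WT ratios in each condition. Group means were 0.736 ± 0.136 in untreated WT, 0.464 ± 0.116 in untreated KI, 1.26 ± 0.0896 in IL-4-treated WT and 0.940 ± 0.147 in IL-4-treated KI cultures (SD, n = 3).

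**Figure D4:**
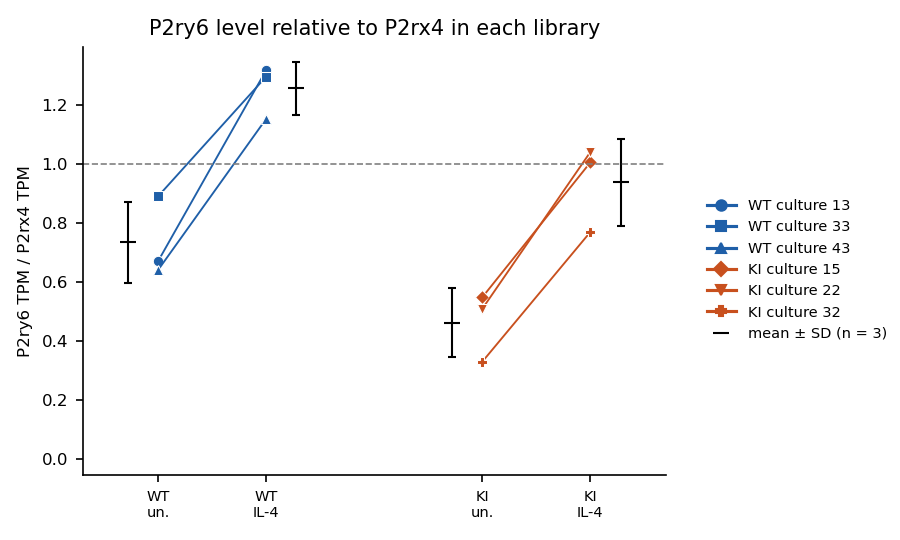
Ratio of *P2ry6* to *P2rx4* TPM (linear axis) in each library, with a line joining the untreated and IL-4 libraries of a culture, WT in blue and KI in orange, bars for the mean ± SD of 3 libraries and a dashed line at equal levels. All WT cultures crossed that line with IL-4, while KI culture 32 stayed below it at 0.771.

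Genes with patterns most like the 3 members with the smallest p in either F-test were found by Pearson's r of log2(TPM + 1) over the 12 libraries, which share cultures and composition. *P2ry6* was closest to *Tbxas1* (thromboxane synthase, r = 0.985), the complement gene *C1qc* (0.972) and the growth factor gene *Igf1* (0.970). *Adora1* was closest to the transcription factor gene *Lhx2* (0.992), the astrocytic glutamate transporter gene *Slc1a3* (0.973) and the prion protein gene *Prnp* (0.970). *Adora3* had no gene as close, with *Leprot* (0.865), *Htra3* (0.859) and *Tonsl* (0.844) at the top. *C1qc* and *Slc1a3* belong to the microglial and astrocyte marker lists used here.

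The rest of the pathway gave no call by the F-tests or the interaction test. Of 31 further genes listed, 30 were in the table and 13 were tested, and 0 of them passed for genotype, IL-4 or interaction by limma. At an unadjusted p under 0.05 the counts were 1 for genotype (*Adk*), 2 for IL-4 (*P2ry13* and *Enpp1*) and 0 for interaction, where 16.1%, 7.27% and 3.19% of all genes tested were under it. The medians over these genes were 0.06 for genotype and 0.04 for IL-4 (log2), and 8 and 9 of the 13 were higher. None of the 5 other P2X genes passed the limit, and the highest of them, *P2rx6* and *P2rx5*, had means of 0.990 and 0.325 TPM.

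Among the other P2Y genes, *P2ry12*, the ADP receptor that steers microglial processes, was at 8.29 to 31.9 TPM, and its 3 untreated KI libraries (9.15, 9.04 and 12.7 TPM) lay below the WT ones (21.4, 24.0 and 19.2 TPM), an order that 4.55% of the genes tested shared. Its genotype difference of -0.65 (log2, SE 0.30) had an adjusted p of 0.380 by limma. The related ADP receptor gene *P2ry13* had lower values after IL-4 in each of the 6 cultures (log2 difference -1.17, SE 0.41, adjusted p = 0.631 by limma), as did 2.51% of the genes tested. Both were lower in level than *P2ry6* in every library.

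Among the other nucleotide-hydrolyzing enzymes listed, *Entpd4* had the highest mean at 24.6 TPM and *Enpp1* followed at 17.6 TPM. *Enpp1*, which cleaves ATP to AMP, was higher with IL-4 in 5 of 6 cultures, by 1.32 (log2, SE 0.35, adjusted p = 0.290 by limma). For the step from AMP to adenosine, *Nt5e* (CD73) had a mean of 0.600 TPM and was not tested in the filtered fit. Adenosine removal was represented by the nucleoside transporter gene *Slc29a1* (mean 51.0 TPM) and by adenosine kinase, *Adk* (48.9 TPM). *Adk* was at 21.4 to 30.3 TPM in WT and 34.4 to 128 TPM in KI libraries with no overlap, where 13.6% of the genes tested were likewise apart and higher in KI when untreated and 12.7% with IL-4. Its difference of 1.26 (log2, SE 0.32) had an adjusted p of 0.124 by limma's F-test. The test of the average difference alone gave 0.0408, past the threshold as for 5.13% of the genes tested, but 0.0616 with culture as a random block and 0.103, 0.152 and 0.168 without WT culture 13, 33 or 43. The highest *Adk* values, 127 and 128 TPM, were those of culture 15, and without it the difference was 0.75, with adjusted p-values of 0.223 by the F-test and 0.0881 by the test of the average difference. For ATP release, the channel gene *Panx1* had a mean of 11.6 TPM and the vesicular transporter gene *Slc17a9* one of 1.75 TPM, with no call for either.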

How the data were processed

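Polyadenylated RNA of 12 libraries of primary microglia was sequenced from SMART-Seq v4 libraries, for the authors, by Eurofins Genomics. Per the labels and the study's methods, Trim Galore removed adaptors, Salmon estimated transcript abundance on ENSEMBL GRCm38 and tximport summed it per gene. The deposited values are TPM for each gene and library. Tool versions are not given in the sources used here, and no read counts were used, so depth is unknown. Poly(A)-primed libraries were not stated to keep strand.

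Genes were named by identifier from a table of mouse gene symbols (48350 of 48623 named), and 29745 were above 0 in at least 1 library. Values were analysed as log2(TPM + 1). A fold change on this scale understates the change of low genes. The 11204 genes with a mean above 1.5 entered lmFit and trended eBayes of limma 3.58.1 (R 4.3.3) as 4 group means. The F-tests joined the interaction to genotype or to IL-4, and sizes are averages over the other factor. The study's likelihood-ratio test on counts guided this design, and limma took its place because the values are TPM. P-values were adjusted by Benjamini-Hochberg over all genes tested, with a threshold of 0.05. Members below the limit were read from a fit with no expression filter. Coordinates come from GENCODE M21, and summaries and plots were made in Python 3.11.15. The fit was tested on simulated data.

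Named genes were all 10 members, any further pathway gene past the threshold and up to 2 per list group by mean TPM, with *Nt5e*, *Enpp1*, *P2ry13* and *Adk* also named as their values or counts required. Likeness was read for the 3 members with the smallest p. Members and lists were chosen with earlier results of these data known.

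The libraries of a culture share a number in the sample titles, which pairs them. Their deviations from the group means correlated at 0.0792 to 0.378, and 10 of 12 libraries correlated best with their own number. The cultures are the replicates, and nothing in the labels says which pups they came from. The main tests had no culture block and took the 2 libraries of a culture as separate samples. Their p-values thus measure the spread between libraries within the 4 groups. The replicate-block alternatives link the libraries of a culture. Alternatives were a pseudocount of 0.1, no filter, quantile normalization, median-ratio scaling, values relative to the microglial markers, no variance trend, a replicate block, single contrasts, a 1-coefficient test and leaving out each culture, and, chosen after seeing the data, an astrocyte marker score as a covariate.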

Additional observations from a re-analysis of the deposited data

How the results depend on the processing

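The count of genes past the threshold for genotype, 185 as tested, was 3781 relative to the microglial markers, 575 with the 1-coefficient test, 102 in untreated cultures alone, 77 with a random replicate block, 54 with the astrocyte score, 26 with no variance trend, 16 with no filter, 2 after IL-4 alone and 3 to 191 when a culture was left out, lowest without WT culture 33. The member count of 0 became 1 relative to the markers and with the 1-coefficient test, *Adora1* both times. For IL-4, 100 genes as tested became 240 with a fixed replicate block (paired by culture), 190 with the astrocyte score, 151 with the 1-coefficient test, 64 in WT alone, 62 relative to the markers, 61 with no filter, 50 with no variance trend, 45 in KI alone and 46 to 143 when a culture was left out. The member count of 1 became 0 with no variance trend, in WT alone and with no filter, and was 0 to 1 when a culture was left out. The interaction gave 4 genes with no filter. *P2ry6* with IL-4 had an adjusted p of 0.000472 with the fixed replicate block, which changed no member's call. Higher values made up 78.4% of the genotype calls as tested, 60% after quantile normalization, 67.7% after median-ratio scaling and 99.6% relative to the markers.

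Differences that changed sign were all uncalled. For genotype, relative to the markers, *P2rx4* was 0.50, *P2rx7* 0.22, *Adora2a* 0.44, *Adora2b* 0.14 and *Entpd1* 0.64. With the astrocyte score *P2rx4* was 0.32 and *Entpd1* 0.28. After IL-4 alone *P2rx4* was 0.022, *Entpd1* 0.036 and *P2ry14* -0.49, and *P2ry14* was -0.41 with a pseudocount of 0.1. For IL-4 in WT alone, *P2rx7* was -0.059 and *P2ry14* 0.21. For the interaction, *Adora1* was -0.20 relative to the markers and -0.18 with the astrocyte score, *Entpd1* -0.18 relative to the markers and *Adora2a* 0.10 after quantile normalization. Leaving out a culture gave ranges, for genotype, of -0.46 to 0.23 for *P2rx4*, -0.21 to 0.85 for *P2ry14*, -0.41 to 0.025 for *Adora2a*, -0.83 to 0.053 for *Adora2b* and -0.32 to 0.27 for *Entpd1*. For IL-4 they were -0.026 to 0.60 for *P2rx7*, -0.79 to 0.11 for *P2ry14*, -0.30 to 0.16 for *Adora1* and -1.11 to 0.061 for *Adora3*. For the interaction they were -0.40 to 0.49 for *Adora1*, -0.43 to 0.24 for *Adora2a*, -2.01 to 0.030 for *Adora2b*, -1.37 to 0.96 for *Adora3* and -0.11 to 0.30 for *Entpd1*. The causes were not tested, apart from fewer genes or libraries entering a fit by construction.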
